A study of Homo sapiens with 6 samples.

Results

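The mitochondrially encoded genes comprise every gene whose symbol in GENCODE release 44 begins with MT-, and 37 of the 63677 genes in the count table met this rule. They are 13 mRNAs, 2 rRNAs and 22 tRNAs, and together they make up the gene content of the human mitochondrial genome. RNA was sequenced from UWB1.289 cells, a single ovarian carcinoma line that lacks functional BRCA1 and whose genotype the labels give as WT. Of the 6 libraries, 3 came from cells held for 24 h in 4 µM Olaparib, an inhibitor of the DNA repair enzyme PARP1, and 3 from cells held as long in the solvent DMSO alone. The design text of the series names 10 µM in place of 4 µM. The comparison asks how the mitochondrial transcripts of these cells responded to PARP inhibition.

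Human mitochondrial DNA is read from both strands into long transcripts that are cut, mostly at the tRNAs that punctuate them, into single RNAs. The mRNAs encode core subunits of respiratory chain complexes I, III and IV and of the ATP synthase, complex V, while the rRNAs and tRNAs serve the mitochondrial ribosome. Most of the mRNAs carry a short poly(A) tail, the rRNAs a few adenosines at most and mature tRNAs none, and MT-ND6 is known as the mRNA without a regular tail. Because several transcripts come from one precursor, the members are not independent of each other. The libraries were made from poly(A)-selected RNA, so the counts of MT-ND6, the rRNAs and the tRNAs refer to the molecules that passed this selection. In bulk RNA, fewer mitochondria, less DNA per mitochondrion and less RNA per genome cannot be told apart.

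The genes lie end to end on chromosome M of GRCh38, which is 16569 bases long. By the annotation, 12 mRNAs, both rRNAs and 14 tRNAs are encoded on the plus strand of this sequence and are called heavy-strand genes below. MT-ND6 and 8 tRNAs are encoded on the minus strand and are called light-strand genes. Of the mRNA genes, 7 end in a whole stop codon and 6 end in T or TA alone, which a poly(A) tail turns into a stop codon. The ends of the 4 mRNAs with the lowest p values below are shown from GRCh38, with the bases of the stop in capitals, because their estimates lay on either side of 0.
MT-ND6: gtaattgagattgctcgggggaatAGG
MT-CO1: gaagaacccgtatacataaaatctAGA
MT-ND3: caaaaaggattagactgaaccgaaT
MT-CYB: gaaaacaaaatactcaaatgggccT
MT-ND6 and MT-CO1 close with 3 bases of their own, whereas MT-ND3 and MT-CYB need their tail. These 4 were picked by their p values in these data, and a link between end and direction was not tested. Among the mRNAs not shown, MT-ND4 ends in T alone but had an estimate below 0 (log2 fold change -0.038). MT-CO2 and MT-ATP6 have whole stop codons but had estimates above 0 (0.024 and 0.018). Some genes also overlap, which matters for assigning reads. MT-ATP8 and MT-ATP6 share the 46 bases at chrM:8527-8572 in different reading frames. They are shown with the start codon of MT-ATP6 and the stop codon of MT-ATP8 in capitals.
MT-ATP8 and MT-ATP6 overlap: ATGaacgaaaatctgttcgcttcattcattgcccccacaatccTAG
MT-ND4L and MT-ND4 share 7 bases, and MT-ATP6 and MT-CO3 share 1. On opposite strands, MT-TI and MT-TQ share 3 bases. The setting that handled reads over such stretches, and the strand setting, are not given in the sources used here, so values of overlapping genes carry this uncertainty.

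Total counts per library lay between 35360458 and 39640775, and the scaling factors of edgeR's TMM method lay between 0.995 and 1.01. Over all 21729 genes tested, 3.36% passed an adjusted p of 0.05 (edgeR's quasi-likelihood F-test, p values adjusted by Benjamini-Hochberg), 2.15% higher and 1.21% lower after Olaparib. The Olaparib and DMSO libraries did not overlap in 19.3% of them. Markers fixed for the tissue were present (PAX8, MUC16, EPCAM, KRT7, KRT8 and KRT18), except WT1 with 0 to 2 counts. A summed 383 to 484 counts per Olaparib library and 412 to 422 per DMSO library fell on 7 markers of blood, vessel and stroma cells. Of these, PECAM1 was at 0 in every library, CD3E and DCN had 0 to 3 counts, and CD68 had 4 to 14. COL1A1 held most of the sum with 237 to 328 counts per library, and PTPRC had 53 to 75. VWF rose from 38 to 46 counts to 63 to 69. Its log2 fold change was 0.68 (adjusted p = 0.0106, the same edgeR test). This call was lost without DMSO replicate 1 (adjusted p = 0.0510). PAX8 also passed, with a log2 fold change of 0.10 (adjusted p = 0.0399), and its adjusted p ran from 0.0301 to 0.202 with each library left out in turn, highest without DMSO replicate 1, all by that edgeR test.

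Counts of the mitochondrial genes were a steady fraction of each library. They took 5.88%, 5.81% and 5.80% of all counts after Olaparib and 5.68%, 6.11% and 6.09% after DMSO. The DMSO libraries thus held both the lowest and the highest share, and the groups overlapped. The 13 mRNAs accounted for most of it, with 4.60%, 4.52% and 4.45% after Olaparib and 4.32%, 4.78% and 4.70% after DMSO. The mean mRNA share was 4.53% ± 0.0761 (SD, n = 3) against 4.60% ± 0.247 (n = 3), a difference of -0.0743 percentage points (exact permutation test, two-sided, p = 0.7). An exact permutation test of 3 libraries against 3 cannot go below p = 0.1. The rRNAs took 1.28% to 1.39% of a library and the tRNAs 0.0046% to 0.0050%.

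Levels between genes were compared as RPKM, normalized counts per kilobase of gene scaled to a common library size, over all 6 libraries. The order ran over a 106-fold range among the mRNAs. MT-ND4, a complex I subunit, stood highest with a mean of 8203 and a range of 7761 to 8676, next to the large ribosomal RNA MT-RNR2 with a mean of 8115. The ranges of these neighbours overlapped, and their order held in 3 of 6 libraries. The complex IV and V mRNAs MT-CO3, MT-CO2, MT-ATP6 and MT-CO1 followed with means of 6161, 5842, 5322 and 5256. MT-ATP6 and MT-CO1 could not be ordered either, since MT-ATP6 was the higher in 3 of 6 libraries. A gap without overlap then separated MT-CO1 from MT-ND1, with a mean of 3865. The lower group was formed by MT-ND4L with 3401, MT-ND2 with 2682, MT-CYB with 2397 and MT-ND3 with 2187, and below it stood MT-ATP8 with 1408 and MT-ND5 with 1361. Of the 14 neighbouring pairs in the order of mRNAs and rRNAs, 11 stood in the same order in all 6 libraries and 7 had overlapping ranges. MT-ND6 closed the order with a mean of 77.5 and a range of 72.5 to 85.2. This light-strand mRNA lay 8.44-fold below the small ribosomal RNA MT-RNR1, whose mean was 654. Without MT-ND6, the mRNA levels spanned a 6.03-fold range.

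**Figure D1:**
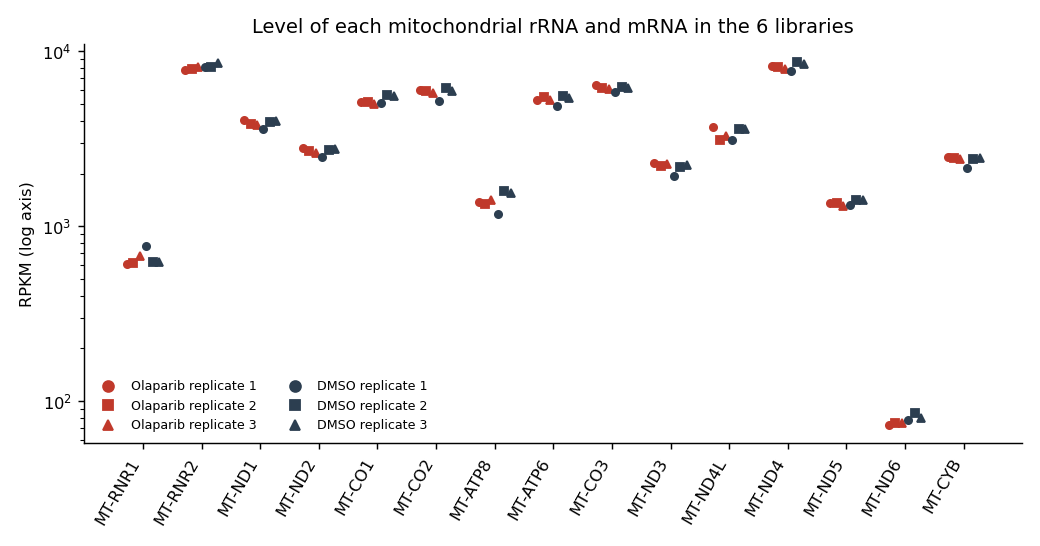
Level of the 13 mRNAs and 2 rRNAs along the mitochondrial genome, on a log axis in RPKM; each point is 1 library, red for Olaparib and dark blue for DMSO. Within a gene the 6 points lie close together, while the genes differ by up to 106-fold among the mRNAs, with MT-ND6 far below all others.

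In edgeR's test with the filter on low counts and no replicate block, no mitochondrial transcript differed past the threshold between Olaparib and DMSO. Of the 37 members, 28 had more than 10 counts in total and were tested, and 0 of 28 passed an adjusted p of 0.05 in edgeR's quasi-likelihood test, beside 3.36% of all genes. DESeq2's Wald test and limma voom also called 0. Among the tRNAs, however, DESeq2 gave an adjusted p only for MT-TT, MT-TI, MT-TL1 and MT-TP, so it could not call the others. Without the filter on low counts, the edgeR test on the same 6 libraries called MT-CO1, MT-ND3 and MT-RNR1, with adjusted p values of 0.00549, 0.0450 and 0.0343. At an unadjusted p under 0.05 there were 6 members, 1 higher and 5 lower, beside 7.83% higher and 6.97% lower (14.8% in all) of the genes tested. The median log2 fold change was 0.016 for the 13 mRNAs, -0.069 for the 2 rRNAs and -0.19 for the 13 tRNAs tested, beside -0.0042 over all genes. The Olaparib and DMSO libraries were apart in 2 of the 28 members, beside 19.3% of all genes. Depth limited the mRNAs little, since each library held 1408 to 462470 counts for an mRNA. The 95% intervals of all 13 mRNAs lay within a 1.2-fold change either way, from 0.859-fold at the lowest bound to 1.11-fold at the highest. These intervals rest on edgeR's variance, which is estimated largely from other genes. The replicates of a single gene could spread more widely, as for MT-ATP8, with a coefficient of variation of 15.7% after DMSO. The intervals therefore do not show that each mRNA was unchanged within 1.2-fold.

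**Figure D2:**
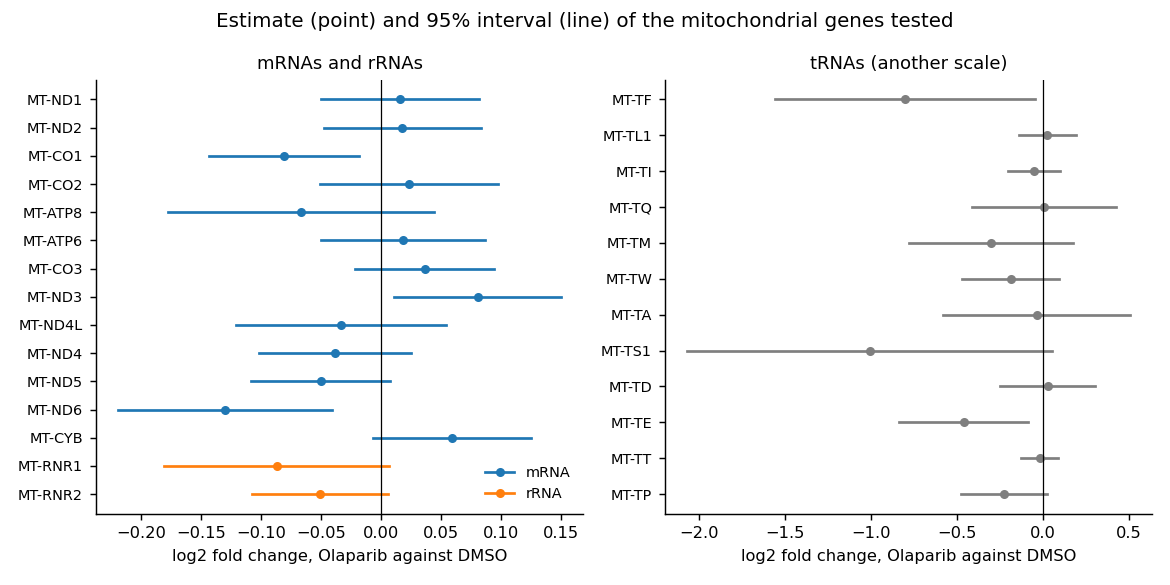
Log2 fold change after Olaparib against DMSO (points) with the 95% interval from edgeR (lines), mRNAs and rRNAs on the left and tRNAs on the right, each panel with a scale of its own. The mRNA and rRNA estimates lie between -0.13 and 0.081, while the tRNA intervals are far wider; MT-TY, with 0 or 1 count in each Olaparib library, is not drawn.

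Among the mRNAs of complex I, which passes electrons from NADH to ubiquinone, MT-ND6 had the largest estimate. MT-ND6 (ENSG00000198695, chrM:14149-14673, minus strand) encodes a membrane subunit of this complex. It had 1424, 1473 and 1464 normalized counts in the Olaparib libraries and 1535, 1674 and 1564 in the DMSO libraries. All Olaparib libraries lay below all DMSO libraries. The log2 fold change was -0.13 (SE 0.0439, 95% interval -0.22 to -0.041), and the adjusted p was 0.107 in edgeR's quasi-likelihood test, so the difference did not pass the threshold. With each library left out in turn, the log2 fold change stayed between -0.15 and -0.092. MT-ND3 (ENSG00000198840, chrM:10059-10404), whose product lies near the joint of the complex, pointed the other way. Its normalized counts were 29627, 28459 and 29206 with Olaparib and 25143, 28357 and 29039 with DMSO. DMSO replicate 1 was the lowest by a wide margin, and the other libraries overlapped. This gave a log2 fold change of 0.081 (SE 0.0343, adjusted p = 0.237, edgeR's quasi-likelihood test) and 0.024 without DMSO replicate 1. The other 5 mRNAs of complex I lay within the spread of the replicates. MT-ND1, MT-ND2, MT-ND4L, MT-ND4 and MT-ND5 had log2 fold changes of 0.016, 0.018, -0.033, -0.038 and -0.050, and their adjusted p values in edgeR's quasi-likelihood test were 0.430 or higher. Among them, MT-ND4 had 423776, 419949 and 408064 normalized counts in the Olaparib libraries and 400089, 447278 and 438193 in the DMSO libraries. Its neighbour MT-ND4L, which shares bases with it, ranged from 34758 to 41041 after Olaparib and from 34592 to 40183 after DMSO. In both genes DMSO replicate 1 was the lowest library and the groups overlapped.

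MT-CYB (ENSG00000198727, chrM:14747-15887) encodes cytochrome b, the mitochondrial subunit of complex III, which hands electrons from ubiquinol to cytochrome c. Its normalized counts were 105669, 104441 and 103201 after Olaparib and 92319, 103877 and 104472 after DMSO. As for MT-ND3, DMSO replicate 1 lay lowest and the remaining libraries overlapped. Its estimate was 0.059 on the log2 scale (SE 0.0324, adjusted p = 0.407, edgeR's quasi-likelihood test), and it was 0.0076 when DMSO replicate 1 was left out.

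Complex IV, cytochrome c oxidase, reduces oxygen and takes its catalytic core from MT-CO1, MT-CO2 and MT-CO3. MT-CO1 (ENSG00000198804, chrM:5904-7445) had 297458, 297030 and 289660 normalized counts in the Olaparib libraries and 291161, 324048 and 319994 in the DMSO libraries. DMSO replicates 2 and 3 stood above every Olaparib library, and DMSO replicate 1 lay among them. The log2 fold change was -0.081 (SE 0.0309, 95% interval -0.14 to -0.018), with an adjusted p of 0.169 in edgeR's quasi-likelihood test. Without DMSO replicate 1 it was -0.12 and passed the threshold, with an adjusted p of 0.0412 in the same edgeR test. Without DMSO replicate 2 or DMSO replicate 3 it was -0.052 or -0.062, with adjusted p values of 0.558 and 0.420 in that test. MT-CO2 and MT-CO3 had log2 fold changes of 0.024 and 0.036 (adjusted p = 0.835 and 0.613, edgeR's quasi-likelihood test). MT-CO2 ranged from 148058 to 153219 normalized counts after Olaparib and from 133678 to 158770 after DMSO. Thus the 3 core subunits did not share a direction, and 0 of 3 passed.

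MT-ATP8 and MT-ATP6 encode membrane subunits of complex V, which makes ATP. MT-ATP8 (ENSG00000228253, chrM:8366-8572) had 10643, 10428 and 10898 normalized counts in the Olaparib libraries and 9139, 12314 and 12015 in the DMSO libraries. The Olaparib libraries sat in a narrow band between DMSO replicate 1 and the other DMSO libraries. The coefficient of variation was accordingly 2.21% after Olaparib and 15.7% after DMSO. The log2 fold change was -0.067 (SE 0.0547, adjusted p = 0.633, edgeR's quasi-likelihood test) with all libraries. Leaving out DMSO replicate 1 gave -0.19 (adjusted p = 0.000998), and leaving out DMSO replicate 2 turned it to 0.010 (adjusted p = 0.969), both by that edgeR test. MT-ATP6 (ENSG00000198899, chrM:8527-9207) had 134991, 139489 and 134864 normalized counts in the Olaparib libraries and 123356, 142423 and 138378 in the DMSO libraries, which put its log2 fold change at 0.018 (adjusted p = 0.869, the same edgeR test). DMSO replicate 1 was again the lowest. The log2 ratio of MT-ATP8 counts to MT-ATP6 counts was -3.66, -3.74 and -3.63 after Olaparib and -3.75, -3.53 and -3.53 after DMSO. The ratio of the counts thus varied from library to library. Because the genes overlap and the handling of shared reads is not known, whether their RNAs differed in level or response was not tested.

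The estimates were also set beside the ends of the genes, shown above for 4 mRNAs. Of the 6 mRNAs whose stop codon is completed by the tail, 5 had an estimate above 0, with a median log2 fold change of 0.027. Of the 7 with a whole stop codon, 2 had an estimate above 0, with a median of -0.050. Without DMSO replicate 1 these counts were 3 of 6 and 0 of 7, without DMSO replicate 2 they were 5 of 6 and 4 of 7, and without Olaparib replicate 1 they were 3 of 6 and 2 of 7. This grouping was noticed after the values had been seen and was not tested, and 0 of the 13 mRNAs passed the threshold. The ratio of MT-CYB to MT-CO1, chosen in the same way as a description, was -1.49, -1.51 and -1.49 on the log2 scale after Olaparib and -1.66, -1.64 and -1.61 after DMSO. Its SD was 0.00998 and 0.0213 within the groups (n = 3 each) and the difference of the means was 0.14. Both genes were picked from the 13 mRNAs for their estimates on opposite sides of 0 (0.059 and -0.081). A difference of about this size therefore followed from the choice and is no further support. A ratio within a library does not depend on how libraries are scaled against each other.

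The light-strand mRNA was therefore also set against the 12 heavy-strand mRNAs of the same library. The log2 ratio of MT-ND6 to their sum was -10.25, -10.17 and -10.15 after Olaparib and -10.02, -10.06 and -10.14 after DMSO. The groups did not overlap, although Olaparib replicate 3 and DMSO replicate 3 nearly met. The difference was -0.12 with a p of 0.1 in the exact two-sided permutation test, the smallest that 3 libraries against 3 can give, and 0.4 after adjustment over the 4 ratios and shares tested this way. Leaving out any single library gave differences between -0.15 and -0.089. The median of the ratios to each of the 12 gave a difference of -0.15. Because MT-ND6 lacks a regular tail, this ratio also reads how much RNA without a tail a library held, and the part of that in the difference was not tested.

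For both rRNAs the Olaparib and DMSO libraries overlapped, and 0 of 2 passed with the filter on low counts. MT-RNR1 (ENSG00000211459, chrM:648-1601), the rRNA of the small subunit, had 21639, 22082 and 24201 normalized counts in the Olaparib libraries and 27407, 22379 and 22377 in the DMSO libraries. DMSO replicate 1 was the highest and Olaparib replicate 3 the next. Its log2 fold change was -0.087 (SE 0.0462, adjusted p = 0.389, edgeR's quasi-likelihood test), and it turned to 0.021 without DMSO replicate 1. Without the filter on low counts it was -0.086 and passed (adjusted p = 0.0343, the same edgeR test). MT-RNR2 (ENSG00000210082, chrM:1671-3229), the rRNA of the large subunit, had 458156, 459517 and 477159 normalized counts in the Olaparib libraries and 474429, 471755 and 498670 in the DMSO libraries. These groups overlapped, with DMSO replicate 3 highest. Its log2 fold change was -0.051 (SE 0.028, adjusted p = 0.414, the same edgeR test), and it was -0.025 without DMSO replicate 3. MT-RNR1 counts equalled 5.78% of the MT-RNR2 counts in DMSO replicate 1 and 4.49% to 5.07% in the other libraries. The log2 ratio of both rRNAs to the mRNAs was -1.80 ± 0.0614 after Olaparib and -1.76 ± 0.0921 after DMSO (SD, n = 3 each). This difference of -0.041 had a p of 0.7 in the exact two-sided permutation test.

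DMSO replicate 1 stood apart from the other libraries across the mitochondrial genome. Of the 13 mRNAs, 10 had their lowest normalized count of all 6 libraries there, and all 13 had their lowest count of the 3 DMSO libraries. Its median deviation from the mean of the 6 libraries was -0.11 on the log2 scale, against 0.071 in DMSO replicate 2 and 0.049 in DMSO replicate 3. In the Olaparib libraries this deviation ran from -0.033 to 0.035. The mRNAs above this lowest rank in DMSO replicate 1 were MT-CO1, MT-ND5 and MT-ND6. MT-RNR1 deviated by 0.23 in the opposite direction. DMSO replicate 1 was also apart beyond the mitochondrial genes, over 15525 genes. There the chi-square per degree of freedom was 4.02 and 4.11 against DMSO replicates 2 and 3, and 1.81 between those replicates. Olaparib replicate 1 gave 3.8 and 3.35 against Olaparib replicates 2 and 3, which gave 2.28 between them. A small nuclear RNA without a poly(A) tail, RNU4-2, had 40 counts in DMSO replicate 1 and 24 in Olaparib replicate 3, the libraries highest in MT-RNR1, and 0 or 1 in the other 4. Of the listed RNAs without a tail, RN7SK, RN7SL1, RN7SL2, RMRP, RPPH1 and SCARNA2 had no match. The 4 measured ones included RNU4-2. Their summed counts were 208 in DMSO replicate 1, 144 in Olaparib replicate 3 and 85 to 119 in the others. SNORA73B, the largest of them, had 142 counts in DMSO replicate 1, 113 in Olaparib replicate 3 and 84 to 118 in the others. The part of poly(A) selection in these values was not tested. With both of these libraries left out, MT-ATP8 passed the threshold, with a log2 fold change of -0.20 (adjusted p = 0.00721, edgeR's quasi-likelihood test), and MT-RNR1 was at -0.030 (adjusted p = 0.846).

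**Figure D3:**
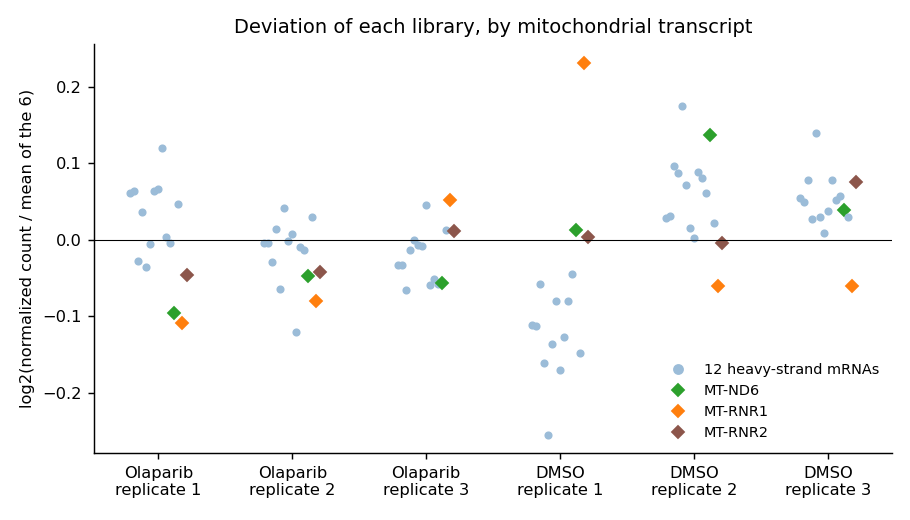
Deviation of each transcript in each library from its mean over the 6 libraries, in log2 units, for 12 heavy-strand mRNAs (light blue circles), MT-ND6, MT-RNR1 and MT-RNR2 (diamonds). In DMSO replicate 1 the heavy-strand mRNAs lie below 0 while MT-RNR1 stands at 0.23.

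The tRNAs were recorded at a small fraction of the other classes and unevenly along the genome. Their counts summed to 1716 to 1973 per library, of which MT-TT took 45.6% to 51.1%. MT-TT carries threonine, follows MT-CYB directly and had 935, 841 and 819 counts after Olaparib and 850, 855 and 983 after DMSO. Next came MT-TI for isoleucine with 253 to 283 counts per library, MT-TL1 for leucine with 224 to 255 and MT-TP for proline with 88 to 129. At the other end, 6 tRNAs (MT-TN, MT-TK, MT-TG, MT-TR, MT-TS2 and MT-TL2) had 0 counts in every library, which allows up to 3 counts per library. The sequences of the 4 highest tRNAs and of MT-TG and MT-TR, both at 0, are shown from GRCh38 with the anticodon in capitals.
MT-TT: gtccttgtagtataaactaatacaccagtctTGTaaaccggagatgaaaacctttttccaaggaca
MT-TI: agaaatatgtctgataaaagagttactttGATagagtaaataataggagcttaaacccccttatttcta
MT-TL1: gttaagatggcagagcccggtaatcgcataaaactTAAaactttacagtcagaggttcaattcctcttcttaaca
MT-TP: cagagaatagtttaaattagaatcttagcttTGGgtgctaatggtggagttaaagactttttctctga
MT-TG: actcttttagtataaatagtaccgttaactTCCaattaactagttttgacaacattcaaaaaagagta
MT-TR: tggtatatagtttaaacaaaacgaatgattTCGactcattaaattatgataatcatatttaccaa
MT-TT, MT-TI and MT-TL1 lie at chrM:15888-15953, chrM:4263-4331 and chrM:3230-3304 on the plus strand, and MT-TP lies at chrM:15956-16023 on the minus strand. MT-TG at chrM:9991-10058 and MT-TR at chrM:10405-10469 fill the space before and after MT-ND3 with 0 bases between the genes. None of these 6 genes ends in CCA, the bases that are added to a tRNA after transcription, and of all 22 tRNA genes 1 (MT-TY) does. The tRNA genes are 59 to 75 bases long, and reads from uncut precursors that reach into a neighbouring gene could not be told from reads of the mature tRNA.

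**Figure D4:**
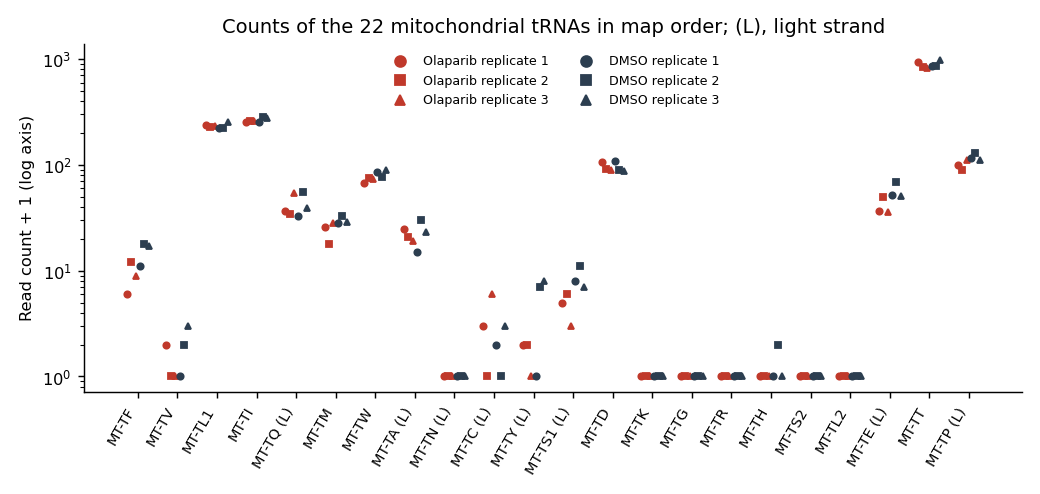
Read counts plus 1 of the 22 tRNAs in map order on a log axis; each point is 1 library, red for Olaparib and dark blue for DMSO, and (L) marks light-strand tRNAs. MT-TT stands near 900 counts, while 6 tRNAs were at 0 in all libraries.

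Estimates lay below 0 for 10 of the 13 tRNAs tested, and 0 of 13 passed the threshold. Of 7 heavy-strand tRNAs tested (MT-TF, MT-TL1, MT-TI, MT-TM, MT-TW, MT-TD and MT-TT), 5 had estimates below 0, and of 6 light-strand tRNAs tested (MT-TQ, MT-TA, MT-TY, MT-TS1, MT-TE and MT-TP), 5 did. The median log2 fold change was -0.054 for the heavy-strand tRNAs and -0.34 for the light-strand tRNAs, which include rare ones such as MT-TY. Under edgeR's filterByExpr, another filter on low counts, 4 light-strand tRNAs remained, with a median of -0.13. A difference between the strands was not tested. MT-TT had a log2 fold change of -0.020 (SE 0.0531), MT-TI of -0.054 (SE 0.0748), MT-TL1 of 0.026 (SE 0.0804) and MT-TP of -0.22 (SE 0.123), with adjusted p values of 0.914, 0.812, 0.931 and 0.412 in edgeR's quasi-likelihood test. The rarer tRNAs gave larger but less certain estimates. MT-TE, for glutamate, had 36, 49 and 35 counts after Olaparib and 51, 68 and 50 after DMSO, which put its log2 fold change at -0.46 (95% interval -0.84 to -0.085, adjusted p = 0.198, the same edgeR test). MT-TF, for phenylalanine, had 5, 11 and 8 counts after Olaparib and 10, 17 and 16 after DMSO (adjusted p = 0.294, the same edgeR test). MT-TY, for tyrosine, had 1, 1 and 0 counts after Olaparib and 0, 6 and 7 after DMSO (adjusted p = 0.186, the same edgeR test), and no fold is given at these counts. With MT-TY at the bound of 3 counts per Olaparib library, the median log2 fold change of the tRNAs was -0.19, and without MT-TY it was -0.12. MT-TE, MT-TF and MT-TY were named after their values had been seen, as the lowest adjusted p values among the tRNAs. The log2 ratio of all tRNAs to the mRNAs was -9.90 ± 0.0286 after Olaparib and -9.85 ± 0.0934 after DMSO (SD, n = 3 each), and the exact two-sided permutation test gave a p of 0.7. MT-TV, MT-TC and MT-TH had 1 to 10 counts in total and were not tested.

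Nuclear chromosomes carry copies of mitochondrial DNA that can share reads with the members. Of 389 such genes listed, 11 had more than 10 counts in total, and 7 copies on chromosome 1 were compared with their mitochondrial source. MTATP6P1 (chr1:633696-634376) is 98.5% identical to MT-ATP6, with 10 mismatches in 681 bases and a longest identical stretch of 141 bases. The window shown from GRCh38, at chrM:8642-8701 and chr1:633811-633870, was picked for having the most mismatches, 3, in capitals. The bases by which reads could be told apart are on average sparser over the gene.
MT-ATP6: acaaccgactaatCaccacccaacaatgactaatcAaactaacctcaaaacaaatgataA
MTATP6P1: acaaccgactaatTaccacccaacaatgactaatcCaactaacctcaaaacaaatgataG
MTATP6P1 had 26875, 27368 and 26906 normalized counts in the Olaparib libraries and 24327, 28459 and 27682 in the DMSO libraries, and DMSO replicate 1 was the lowest, as for MT-ATP6. Its counts equalled 19.8% ± 0.180 of the MT-ATP6 counts after Olaparib and 19.9% ± 0.158 after DMSO (SD, n = 3 each). MTND2P28, 98.4% identical to MT-ND2, equalled 5.34% to 5.88% of the MT-ND2 counts, and MTCO1P12, 98.6% identical to MT-CO1, equalled 0.148% to 0.188% of the MT-CO1 counts. The log2 fold changes of MTATP6P1, MTND2P28 and MTCO1P12 were 0.012, -0.041 and 0.022, with adjusted p values of 0.926, 0.737 and 0.921 in edgeR's quasi-likelihood test. In this test 0 of the 11 copies passed and 0 had an unadjusted p under 0.05. With limma voom 0 of the 11 were called. DESeq2's Wald test called 0, but it gave an adjusted p only for MTATP6P1, MTND2P28 and MTCO1P12. How the authors' counting treated reads that map to several places is not given in the sources used here, so the counts of these members and of their copies are uncertain.

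The nuclear genes that copy, cut, modify, stabilize and decay mitochondrial RNA were taken from a list of 51, of which 50 were matched and tested. LRPPRC rose, and it was the only 1 of the 50 to pass in edgeR's quasi-likelihood test, beside 3.36% of all genes, while 0 of 50 also passed a 1.2-fold change. LRPPRC (ENSG00000138095, chr2:43886224-43996226) encodes an RNA-binding protein that stabilizes mitochondrial mRNAs and supports their polyadenylation. It had 20328, 18942 and 19066 normalized counts in the Olaparib libraries and 17739, 17889 and 17605 in the DMSO libraries, and every Olaparib library lay above every DMSO library. The log2 fold change was 0.13 (SE 0.0286, 95% interval 0.074 to 0.19, adjusted p = 0.00483, edgeR's quasi-likelihood test). It stayed between 0.099 and 0.15 with each library left out in turn, with an adjusted p of at most 0.0429 in the same test. Leaving out both DMSO replicate 1 and Olaparib replicate 3 gave 0.15 (adjusted p = 0.0728), and scaling the libraries by their summed mitochondrial mRNAs gave an adjusted p of 0.384, both by the same edgeR test. In the group to which LRPPRC belongs, 1 of 7 genes passed and the median log2 fold change was -0.012. Its binding partner SLIRP was at 0.017 on the log2 fold change scale (adjusted p = 0.903), the poly(A) polymerase MTPAP at -0.013 (adjusted p = 0.939) and the exoribonuclease PNPT1 at 0.062 (adjusted p = 0.429), each by that edgeR test. SLIRP, named after its values had been seen, ran from -0.024 to 0.056 with each library left out in turn.

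POLRMT, the mitochondrial RNA polymerase, had 2044, 2237 and 2119 normalized counts in the Olaparib libraries and 1918, 2019 and 1913 in the DMSO libraries. The groups did not overlap, and the log2 fold change was 0.13 (SE 0.0425, adjusted p = 0.0928, edgeR's quasi-likelihood test), so it did not pass with all libraries. When Olaparib replicate 1 was left out, the estimate of 0.16 passed (adjusted p = 0.0372, the same edgeR test). TFAM, which packages mitochondrial DNA and starts its transcription, had 6428, 5882 and 6126 normalized counts in the Olaparib libraries and 6509, 6312 and 6460 in the DMSO libraries, and these overlapped (log2 fold change -0.065, adjusted p = 0.366, the same edgeR test). Of the 8 transcription genes, 8 replication genes, 13 RNA processing genes, 6 rRNA modification genes and 8 tRNA modification genes, 0 passed. Their median log2 fold changes lay between -0.030 for tRNA modification and 0.044 for rRNA modification.

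The nuclear-encoded subunits of the same complexes were set beside the mitochondrial mRNAs. Of 78 subunits of complexes I to V, DESeq2's Wald test and limma voom called 0. DESeq2 gave no adjusted p for subunits at low counts such as NDUFA7 and NDUFA13. In edgeR's quasi-likelihood test 0 of 78 passed. At an unadjusted p under 0.05 there were 9 (11.5%), below the 14.8% of all genes, with 8 higher and 1 lower after Olaparib beside 7.83% and 6.97% of all genes. Estimates above 0 were found in 51 of 78 subunits and in 7 of 13 mitochondrial mRNAs, but without DMSO replicate 1 in 45 of 78 and 3 of 13. The median log2 fold change was 0.018 for the nuclear subunits and 0.016 for the mitochondrial mRNAs, and without DMSO replicate 1 it was 0.0096 and -0.042. Without Olaparib replicate 1 the medians were 0.034 and -0.011, without Olaparib replicate 3 they were 0.0027 and 0.027, and without DMSO replicate 3 they were 0.036 and 0.038. By complex, the nuclear median ran from 0.0054 for complex I to 0.043 for complex II, which has no mitochondrially encoded subunit. The mitochondrial mRNAs of complexes I, IV and V had medians of -0.033, 0.024 and -0.024, over 7, 3 and 2 genes. No difference between the nuclear and mitochondrial subunits was tested.

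**Figure D5:**
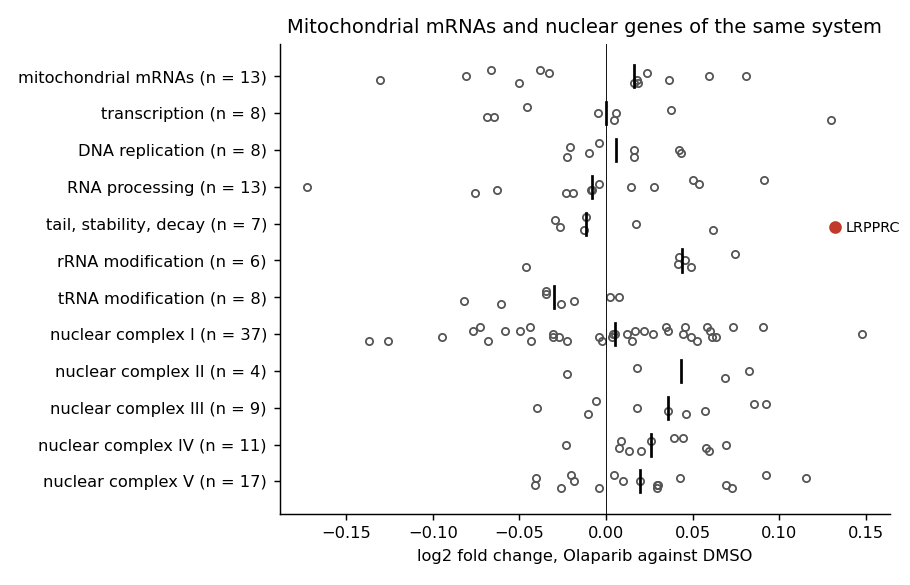
Log2 fold change after Olaparib against DMSO for the 13 mitochondrial mRNAs, for 6 groups of nuclear genes that act on mitochondrial DNA and RNA, and for the nuclear subunits of complexes I to V; each circle is a gene and each vertical bar the median of its group. LRPPRC, filled in red at 0.13, is the gene with an adjusted p under 0.05.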

How the data were processed

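RNA-seq of 6 UWB1.289 samples, 3 with Olaparib and 3 with DMSO, was grouped by the sample labels, with replicates that the study's methods call independent. The authors deposited raw read counts per gene, whole numbers without scaling. By the study's methods they trimmed reads with Trimmomatic, aligned them to GRCh38 with STAR, marked duplicates with Picard and counted with featureCounts. Whether duplicates were removed, and how multimapping, overlapping and antisense reads were counted, are not given in the sources used here. The labels name hg38, STAR and featureCounts.

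Genes whose counts summed to more than 10 were tested with edgeR 4.0.16 (R 4.3.3) by its quasi-likelihood test on TMM-scaled counts, without a replicate block, with Benjamini-Hochberg adjustment over all 21729 genes. An adjusted p under 0.05 was called. Normalized counts are counts at a common library size. Levels per kilobase used the gene length. DESeq2 1.42.0 and limma 3.58.1 (voom) were alternatives, with other scalings, other filters, a replicate block, each library left out in turn, and, chosen after seeing the data, DMSO replicate 1 and Olaparib replicate 3 both left out. Shares and ratios were tested by exact permutation (scipy 1.17.1). Replicate pairs differed by more than sampling noise (chi-square per degree of freedom 1.81 to 4.11 over 15525 genes), so all 6 samples were kept. Symbols and coordinates came from GENCODE 44, which held 81.9% of the listed identifiers. Copies were aligned with Biopython 1.88. In simulated counts of 21265 genes, edgeR recovered 37 of 50 genes changed by -0.5 and 43 of 50 changed by 0.5 on the log2 scale, and called 6 of 21065 unchanged genes. No change smaller than 0.5 and no change in genes at low counts was simulated. Recovery of changes as small as the mRNA and rRNA estimates, or in rare tRNAs, was therefore not tested. Intervals and floors cover counting error or replicate spread only.

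Named were all mRNAs and rRNAs, the 4 tRNAs with the most counts, tested tRNAs by strand, machinery genes called plus POLRMT, TFAM, LRPPRC, MTPAP and PNPT1, nuclear copies with a mean count of at least 20 that were called plus the 3 with the most counts, and the nuclear subunits with the largest rise and fall called. The members and lists were chosen with earlier results of these data known.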

Additional observations from a re-analysis of the deposited data

How the results depend on the processing

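DESeq2 called 0 mitochondrial genes but gave no adjusted p for the rarer tRNAs. The count of 0 mitochondrial genes called also held under limma voom, every other scaling, filterByExpr and the added fold threshold of 1.2. Without the filter on low counts it was 3 (MT-CO1, MT-ND3 and MT-RNR1), without DMSO replicate 1 it was 2 (MT-ATP8 and MT-CO1), and with DMSO replicate 1 and Olaparib replicate 3 both left out it was 1 (MT-ATP8); the cause was not tested. Over the libraries left out in turn the count was 0 to 2, that of the machinery genes 1 to 2 (2 with POLRMT, without Olaparib replicate 1), that of the nuclear copies 0 to 1 (MTND2P28, without DMSO replicate 1), and that of the nuclear subunits 0 to 3 (ATP5F1D, CYC1 and NDUFS7, without Olaparib replicate 1). Leaving out both named libraries gave 0 machinery genes.

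With each library left out, the median log2 fold change of the mRNAs ran from -0.042 (without DMSO replicate 1) to 0.038, the mRNA share difference from -0.215 (without DMSO replicate 1) to 0.0169 percentage points, the rRNA to mRNA ratio from -0.087 to 0.0050, the tRNA to mRNA ratio from -0.087 to 0.0020 and the MT-ND6 ratio from -0.15 to -0.089. Log2 fold changes that changed sign ran from -0.029 to 0.048 for MT-ND1, -0.027 to 0.048 for MT-ND2, -0.042 to 0.076 for MT-CO2, -0.19 to 0.010 for MT-ATP8, -0.037 to 0.060 for MT-ATP6, -0.11 to 0.017 for MT-ND4L, -0.14 to 0.021 for MT-RNR1, -0.081 to 0.029 for MT-TT, -0.012 to 0.058 for MT-TL1, -0.052 to 0.037 for MTPAP, -0.024 to 0.056 for SLIRP, -0.12 to 0.014 for MTND2P28, -0.024 to 0.087 for MTCO1P12 and -0.050 to 0.057 for MTATP6P1. With both named libraries left out they were -0.0085 for MT-ND1, -0.0065 for MT-ND2, -0.029 for MT-CO2, -0.029 for MT-ATP6, 0.035 for MT-TT and -0.046 for MTATP6P1. Of 27 named genes, 14 kept their sign in all 17 alternatives.

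The replicate block called 1 mitochondrial gene (MT-ND6, adjusted p = 0.0403, edgeR's quasi-likelihood test), 2 machinery genes (LRPPRC and POLRMT), 0 nuclear copies and 3 nuclear subunits (ATP5F1B, CYC1 and NDUFV1). The sources used here do not say whether libraries of equal replicate number share a source. Same-numbered libraries did not deviate together (r of -0.080, 0.11 and -0.11 across genes). The samples were therefore not treated as paired in the main fit, but these values cannot exclude a pairing. The highest r of any Olaparib library with any DMSO library was 0.23, between Olaparib replicate 3 and DMSO replicate 1.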
